A study of Danio rerio with 24 samples.

Results

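Cathepsins are proteases of the lysosome, the compartment in which cells break down proteins taken up from outside or delivered from within. Most are cysteine proteases and a few, such as cathepsin D, are aspartic proteases. They are made as inactive precursors that are cut in the acidic lysosome, and in vertebrates they are abundant in macrophages and in osteoclasts, the cells that resorb bone. The genes described here are ctsl.1, ctsla, ctss2.1, ctsba, ctsd and ctsk, and every probe set annotated to exactly 1 of these symbols was taken. That gave 7 probe sets of 15502, covering 6 of 8793 named genes. The gene ctsl.1 had 2 probe sets (the first here is the one whose name ends in S1_at, the second the one ending in A1_at) and the other 5 genes had 1 each. In the RefSeq table ctsk and ctss2.1 stand next to each other on chromosome 16, with ctss2.2 as the following gene. The same table places ctsl.1 and ctsba on chromosome 17, ctsla on chromosome 5 and ctsd on chromosome 18.

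RNA of zebrafish caudal fins (Danio rerio), all of the AB strain, was hybridised to 24 Affymetrix arrays in 8 groups of 3 replicates, to compare how fins of both ages regrow. Adult groups were fins of males, 10 fish to a replicate, either unamputated or at 1, 3 or 5 days post amputation (dpa). The adult fish with regenerating fins had been injected with liposomes as vehicle, and no vehicle was stated for the unamputated adults. Larval groups were pools of 150 fins, either unamputated at 2 days post fertilization or cut at that age and collected at 1, 2 or 3 dpa. Larvae at 2 and 3 dpa had been kept in DMSO as vehicle, and none was stated for unamputated larvae or those at 1 dpa. Adult samples started from 2.5 µg of RNA in a single-cycle labelling kit and larval samples from 100 ng in a two-cycle kit. Age, kit and RNA input therefore cannot be told apart, nor can the larval day and the age of the fish, since no older unamputated larvae were measured. In adults vehicle and amputation cannot be told apart. In larvae the same holds for vehicle and the step from 1 to 2 dpa, and for vehicle and amputation at 2 and 3 dpa. The labels disagree in places (the larval unamputated and 1 dpa source names all give replicate 1, and one text for unamputated adults names days after amputation), and the titles were followed.

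The deposited values are ratios, each probe set against a reference of its own that is not stated. A ratio can be compared between arrays for 1 probe set, and not between probe sets or genes. For the same reason marker genes cannot show whether a cell type was present or absent in these fins, only whether its markers shifted. Changes below are differences in log2 ratio with the standard error of the limma model, and a call needed both a 2-fold change and a limma p below 0.05 after Benjamini-Hochberg adjustment. The words rose and fell are kept for such calls. The days of one age share the 3 unamputated arrays of that age. Replicates of a group correlated over all probe sets with r between 0.793 and 0.939, except at larval 3 dpa (0.629 to 0.808), where replicate 3 was the distant array (0.638 and 0.629 with the others). Larval results at 3 dpa are therefore also given without that array.

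All 7 cathepsin probe sets rose in larval fins at every day after amputation, and 4, 2 and 2 of them rose in adult fins at 1, 3 and 5 dpa. Over all probe sets, 2.43%, 6.23% and 5.08% rose in larvae at 1, 2 and 3 dpa, and 8.68%, 8.10% and 7.01% rose in adults at 1, 3 and 5 dpa. The 6 genes were chosen with earlier results of these data known, so the shares over all probe sets are context and not a test. The median change of the 7 probe sets was 1.46, 2.14 and 1.86 in larvae at 1, 2 and 3 dpa, against medians over all probe sets of −0.03, −0.02 and 0.00. In adults it was 1.11, 0.72 and 0.81 at 1, 3 and 5 dpa, against −0.17, −0.18 and −0.17 over all probe sets. None fell at any day at either age, where 1.58%, 6.32% and 5.51% of all probe sets fell at larval 1, 2 and 3 dpa and 7.40%, 6.19% and 4.46% at adult 1, 3 and 5 dpa. Every regenerating array lay above every unamputated array for 7 of 7 probe sets at each larval day, against 15.6%, 25% and 19.3% of all probe sets at 1, 2 and 3 dpa. In adults this held for 5, 5 and 6 of 7 at 1, 3 and 5 dpa, against 19.7%, 18.4% and 17.7%. In bulk tissue, fewer cells of a type and less RNA per cell cannot be told apart, and the same holds for more of either.

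**Figure D1:**
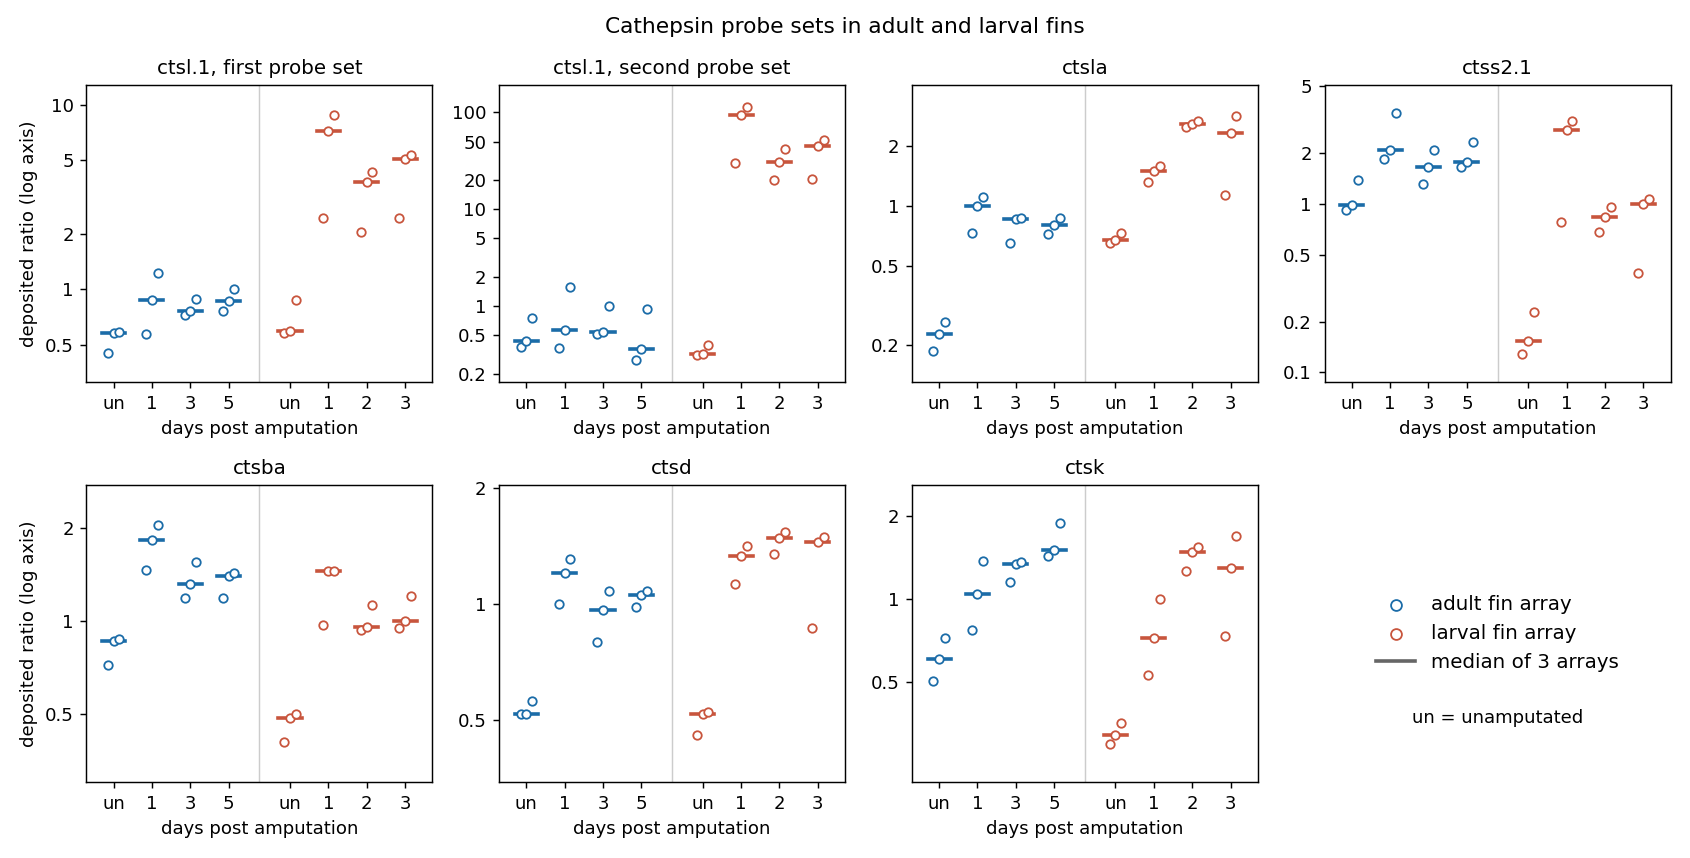
Deposited ratio of each of the 7 cathepsin probe sets on every array, on a log axis, with adult fins in blue on the left of each panel and larval fins in red on the right, and a bar at the median of 3 arrays. In larval fins each regenerating array lies above all 3 unamputated arrays in all 7 panels, and in the second ctsl.1 panel the larval regenerating arrays read 20.2 to 114 while no adult array exceeds 1.59.

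The gene ctsl.1 belongs to the cathepsin L family of cysteine endopeptidases, which cut proteins within the chain. Its second probe set read 0.310, 0.322 and 0.394 in unamputated larval fins, 30.3, 94.4 and 114 at 1 dpa, 41.8, 30.9 and 20.2 at 2 dpa, and 44.7, 51.7 and 20.6 at 3 dpa. No regenerating larval array came near the unamputated ones. The change was 7.66 ± 0.48 at 1 dpa (limma adjusted p = 1.71e-05), 6.45 ± 0.48 at 2 dpa and 6.74 ± 0.48 at 3 dpa, and 7.14 ± 0.49 at 3 dpa without replicate 3. In adult fins the same probe set read 0.441, 0.382 and 0.751 when unamputated, 0.367, 1.59 and 0.573 at 1 dpa, 0.520, 0.538 and 1.00 at 3 dpa, and 0.275, 0.362 and 0.925 at 5 dpa. All 4 adult groups overlapped. Adult changes were 0.47 ± 0.58, 0.38 ± 0.58 and −0.15 ± 0.58 at 1, 3 and 5 dpa, with limma adjusted p of 0.529, 0.615 and 0.853.

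The first ctsl.1 probe set read 0.581, 0.873 and 0.593 in unamputated larval fins, 2.44, 7.23 and 8.84 at 1 dpa, 4.32, 3.8 and 2.05 at 2 dpa, and 5.07, 5.36 and 2.45 at 3 dpa. It rose as well, with groups that did not overlap, but by less: 3.00 ± 0.48, 2.27 ± 0.48 and 2.60 ± 0.48 at 1, 2 and 3 dpa (limma adjusted p = 0.00241, 0.00401 and 0.00205), and 2.96 ± 0.49 at 3 dpa without replicate 3. In adults it read 0.452, 0.583 and 0.575 when unamputated, 0.573, 1.23 and 0.872 at 1 dpa, 0.883, 0.759 and 0.721 at 3 dpa, and 0.760, 0.862 and 1.00 at 5 dpa. The adult arrays at 3 and 5 dpa all lay above the unamputated ones, and those at 1 dpa overlapped them. Adult changes were 0.67 ± 0.24, 0.56 ± 0.24 and 0.70 ± 0.24 at 1, 3 and 5 dpa (limma adjusted p = 0.0438, 0.0853 and 0.0467), each under 2-fold.

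The probe sets of ctsl.1 therefore agreed in direction in larvae and disagreed in size. Their difference on each array, second minus first on the log2 scale, was −0.91, −1.44 and −0.59 in unamputated larval fins, 3.64, 3.71 and 3.69 at 1 dpa, 3.27, 3.02 and 3.31 at 2 dpa, and 3.14, 3.27 and 3.08 at 3 dpa. The 9 regenerating larval arrays thus spanned less than the 3 unamputated ones. The second probe set changed by 4.65 ± 0.20 more than the first at 1 dpa, 4.18 ± 0.20 more at 2 dpa and 4.14 ± 0.20 more at 3 dpa (limma on the difference, adjusted p = 1.6e-08, 3.09e-08 and 2.38e-08 over 2608 pairs). Of all pairs of probe sets that share a gene, 2.26%, 9.05% and 8.24% differed by this rule at the 3 larval days. Between successive larval days the pair did not differ by this rule, where 8.82% and 0% of pairs did. The difference was −0.48 ± 0.20 from 1 to 2 dpa (limma adjusted p = 0.133) and −0.04 ± 0.20 from 2 to 3 dpa (adjusted p = 0.974). With quantile normalization the difference from 1 to 2 dpa turned to 2.39 ± 0.64 (limma adjusted p = 0.0236) and was called.

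In adults the difference between the ctsl.1 probe sets lay between −1.46 and 0.47 on the 12 arrays. Against unamputated fins it changed by −0.20 ± 0.46 at 1 dpa, −0.18 ± 0.46 at 3 dpa and −0.86 ± 0.46 at 5 dpa (limma adjusted p = 0.784, 0.82 and 0.208), where 13.9%, 11.8% and 14% of pairs differed. None of the adult differences passed the test. Across the 12 larval arrays the pair ordered the arrays alike (Pearson r = 0.958, Spearman rho = 0.986). Across the 12 adult arrays this was weaker (r = 0.519, rho = 0.371). Both values are descriptions, since the arrays of an age share their groups. Which sequence each probe set detects was not analysed here, and whether either one also detects other cathepsin L genes was not tested.

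**Figure D2:**
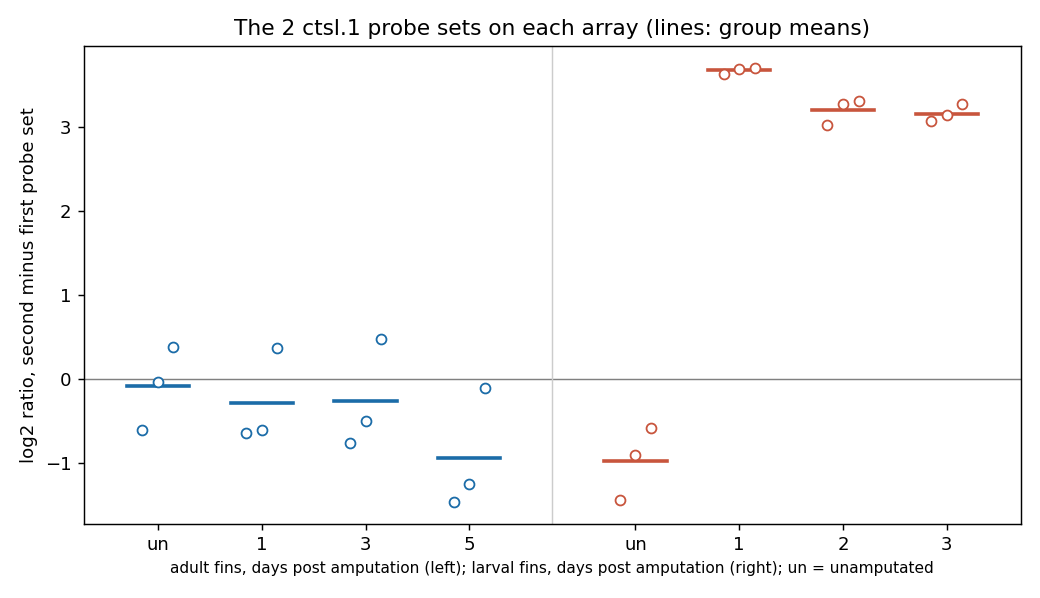
Difference in log2 ratio between the second and the first ctsl.1 probe set on each array, with adult groups on the left and larval groups on the right and a line at each group mean. The adult arrays lie between −1.46 and 0.47 and the unamputated larval arrays between −1.44 and −0.59, while all 9 regenerating larval arrays lie between 3.02 and 3.71.

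The gene ctsla, also of the cathepsin L family, had the largest adult change of the 6 genes at each day. It read 0.226, 0.260 and 0.185 in unamputated adult fins, 0.736, 1.11 and 1.00 at 1 dpa, 0.875, 0.652 and 0.862 at 3 dpa, and 0.799, 0.726 and 0.873 at 5 dpa. The 3 regenerating groups overlapped one another and lay far above unamputated fin. Its adult rise was 2.08 ± 0.19, 1.83 ± 0.19 and 1.85 ± 0.19 at 1, 3 and 5 dpa (limma adjusted p = 0.000109, 0.000191 and 0.000262). In larvae ctsla read 0.654, 0.734 and 0.679 when unamputated, 1.59, 1.51 and 1.33 at 1 dpa, 2.69, 2.50 and 2.60 at 2 dpa, and 2.33, 2.85 and 1.14 at 3 dpa. Arrays at 2 dpa lay above all those at 1 dpa, while the 3 dpa arrays overlapped both. The larval rise was 1.1 ± 0.26 at 1 dpa, 1.92 ± 0.26 at 2 dpa and 1.51 ± 0.26 at 3 dpa, or 1.91 ± 0.12 at 3 dpa without replicate 3. The call at 1 dpa was lost when larval unamputated replicate 1 or 3 or larval 1 dpa replicate 2 was left out, with changes of 1.06, 1.09 and 1.08 and limma adjusted p of 0.0638, 0.0549 and 0.0578, and with quantile normalization (1.40, adjusted p = 0.0985). The step from 1 to 2 dpa was 0.82 ± 0.26 (limma adjusted p = 0.0429), under 2-fold and not called.

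Cathepsin K is known in mammals as the collagen-degrading protease of osteoclasts. The gene ctsk read 0.608, 0.724 and 0.507 in unamputated adult fins, 0.771, 1.38 and 1.04 at 1 dpa, 1.34, 1.15 and 1.36 at 3 dpa, and 1.51, 1.44 and 1.90 at 5 dpa. The 5 dpa arrays were above all 3 dpa arrays, and every regenerating array was above the unamputated ones. The adult change was 0.77 ± 0.21 at 1 dpa (limma adjusted p = 0.0149), under 2-fold, and ctsk rose by 1.08 ± 0.21 at 3 dpa (adjusted p = 0.00354) and by 1.40 ± 0.21 at 5 dpa (adjusted p = 0.0016). The 3 dpa call was lost without adult unamputated replicate 3 (0.95) and with quantile normalization (0.95). In larvae ctsk read 0.355, 0.321 and 0.298 when unamputated, 1.00, 0.724 and 0.531 at 1 dpa, 1.55, 1.49 and 1.26 at 2 dpa, and 1.30, 1.69 and 0.738 at 3 dpa. As with ctsla, the 2 dpa arrays lay above the 1 dpa arrays and the 3 dpa arrays overlapped both. The larval rise was 1.17 ± 0.28, 2.14 ± 0.28 and 1.86 ± 0.28 at 1, 2 and 3 dpa, with 2.19 ± 0.23 at 3 dpa without replicate 3.

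The larval ctsk call at 1 dpa (limma adjusted p = 0.0206) was lost when any of 4 of the 6 arrays compared was left out. Without larval unamputated replicate 2 or 3 or larval 1 dpa replicate 2 the change was 1.16, 1.11 and 1.17, with adjusted p of 0.06, 0.0669 and 0.059, and without larval 1 dpa replicate 1 it was 0.94 with 0.0625. The call was kept without larval unamputated replicate 1 or larval 1 dpa replicate 3. Quantile normalization gave 1.2 with 0.0607. From 1 to 2 dpa ctsk differed by 0.97 ± 0.28 (limma adjusted p = 0.0296), just under 2-fold.

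The gene ctss2.1 encodes a cathepsin S, a protease that in mammals trims the invariant chain of class II antigen presentation in macrophages and dendritic cells. It read 0.230, 0.129 and 0.153 in unamputated larval fins, 0.778, 3.12 and 2.73 at 1 dpa, 0.953, 0.684 and 0.841 at 2 dpa, and 1.07, 1.00 and 0.391 at 3 dpa. Replicates 2 and 3 at 1 dpa were the highest larval arrays, and replicate 1 of that day lay among those of the later days. The larval rise was 3.50 ± 0.51 at 1 dpa (limma adjusted p = 0.00158), 2.31 ± 0.51 at 2 dpa and 2.18 ± 0.51 at 3 dpa, or 2.65 ± 0.50 at 3 dpa without replicate 3. In adults ctss2.1 read 0.987, 0.925 and 1.39 when unamputated, 1.84, 3.45 and 2.07 at 1 dpa, 1.66, 1.32 and 2.09 at 3 dpa, and 1.77, 1.66 and 2.32 at 5 dpa. Groups at 1 and 5 dpa did not overlap unamputated fin and the 3 dpa group did. It rose by 1.12 ± 0.27 at 1 dpa (limma adjusted p = 0.00763), and its changes of 0.62 ± 0.27 at 3 dpa and 0.81 ± 0.27 at 5 dpa were not called. Without adult 1 dpa replicate d the change at 1 dpa was 0.85 and no longer 2-fold, and with quantile normalization it was 0.87.

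Cathepsin B, encoded by ctsba, also removes dipeptides from the ends of proteins. It read 0.861, 0.873 and 0.721 in unamputated adult fins, 1.46, 2.04 and 1.83 at 1 dpa, 1.18, 1.31 and 1.55 at 3 dpa, and 1.40, 1.43 and 1.18 at 5 dpa. In larvae it read 0.485, 0.407 and 0.498 when unamputated, 0.966, 1.45 and 1.45 at 1 dpa, 0.936, 0.957 and 1.13 at 2 dpa, and 0.950, 1.2 and 1.00 at 3 dpa. At both ages every regenerating array was above the unamputated ones. It rose by 1.11 ± 0.16 in adults at 1 dpa (limma adjusted p = 0.000651) and changed by less than 2-fold at 3 dpa (0.72 ± 0.16, adjusted p = 0.0054) and 5 dpa (0.71 ± 0.16, adjusted p = 0.00837). The larval rise was 1.46 ± 0.17, 1.12 ± 0.17 and 1.18 ± 0.17 at 1, 2 and 3 dpa, with 1.21 ± 0.20 at 3 dpa without replicate 3.

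Cathepsin D, encoded by ctsd, is the aspartic protease of the group. It read 0.560, 0.519 and 0.520 in unamputated adult fins, 1.00, 1.31 and 1.21 at 1 dpa, 0.968, 0.797 and 1.08 at 3 dpa, and 1.08, 0.985 and 1.06 at 5 dpa. In larvae it read 0.459, 0.525 and 0.521 when unamputated, 1.13, 1.42 and 1.33 at 1 dpa, 1.53, 1.35 and 1.48 at 2 dpa, and 1.49, 1.45 and 0.866 at 3 dpa. Regenerating and unamputated arrays did not overlap at either age. It rose by 1.13 ± 0.14 in adults at 1 dpa (limma adjusted p = 0.000338), and its changes of 0.82 ± 0.14 at 3 dpa (adjusted p = 0.00155) and 0.96 ± 0.14 at 5 dpa (adjusted p = 0.00112) stayed under 2-fold. The larval rise was 1.36 ± 0.19, 1.54 ± 0.19 and 1.30 ± 0.19 at 1, 2 and 3 dpa (limma adjusted p = 0.00117, 0.000128 and 0.000424), with 1.56 ± 0.12 at 3 dpa without replicate 3. Its larval changes at the 3 days lay closer together than those of any other of the 7 probe sets. With quantile normalization the adult 1 dpa changes of ctsba and ctsd were 0.87 and 0.94, so that both calls were lost.

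**Figure D3:**
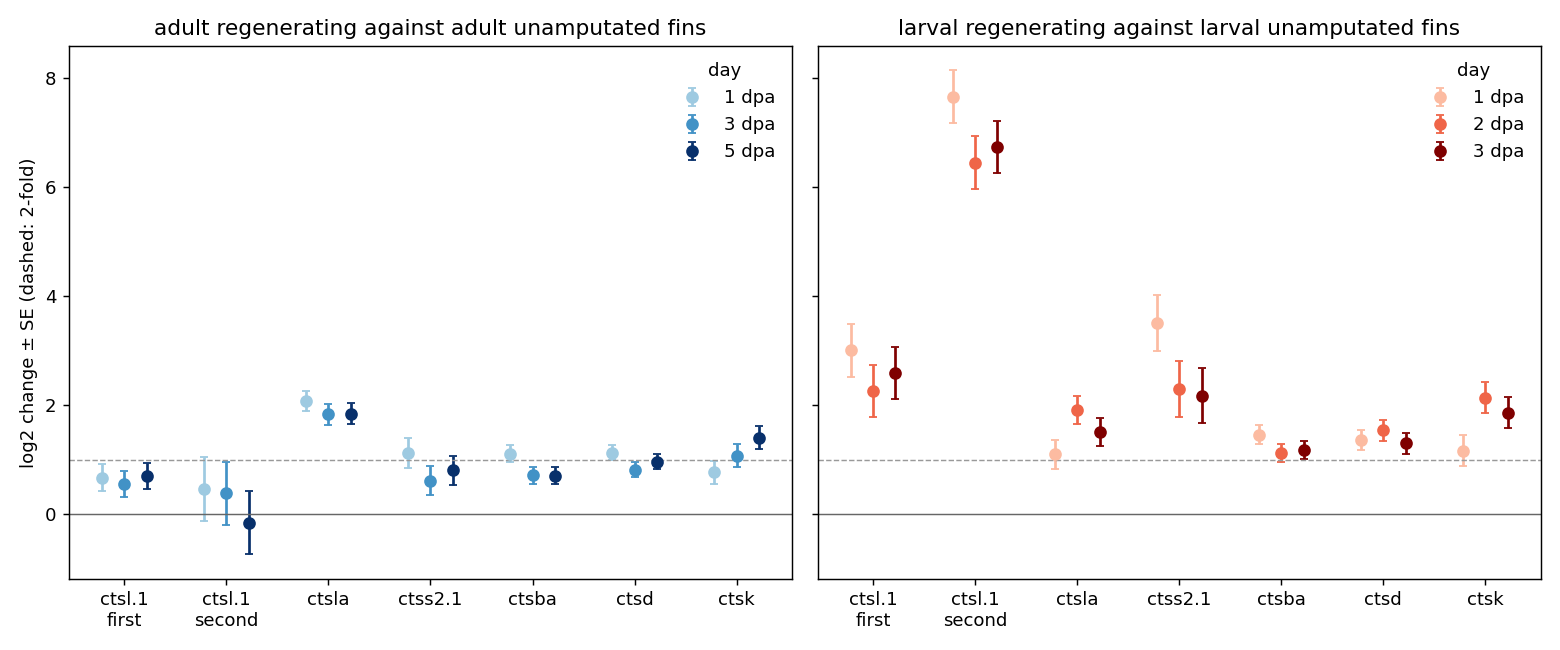
Log2 change of each cathepsin probe set against unamputated fin of the same age, with the standard error of the model, for adult fins on the left and larval fins on the right, one shade per day and a dashed line at 2-fold. All larval points lie above 2-fold, from 1.1 for ctsla at 1 dpa to 7.66 for the second ctsl.1 probe set, while adult points run from −0.15 for that probe set at 5 dpa to 2.08 for ctsla at 1 dpa.

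With the adjusted p alone and no minimum fold change, 6, 4 and 6 of the 7 probe sets passed in adults at 1, 3 and 5 dpa, all of them higher, against 17.0%, 15.4% and 12.3% of all probe sets. The adult median over all probe sets lay below 0, and relative to it the adult changes of ctsd were 1.30, 1.00 and 1.13 at 1, 3 and 5 dpa. When each array was centred on its median, ctsd joined ctsla and ctsk among those that rose at 5 dpa. Control probe sets for RNA added at hybridisation moved with the same groups. The mean log2 ratio of 9 such probe sets lay between −1.14 and −0.74 on the 9 regenerating adult arrays. On the 3 unamputated adult arrays it lay between 0.09 and 0.86. Liposome injection separated the same arrays. The part of either in the adult changes was not tested. In larvae the mean of these control probe sets was 0.16 to 0.46 when unamputated and −0.04 to 0.18 at 1 dpa. It was −0.30 to 0.09 at 2 dpa and −0.11 to 0.13 at 3 dpa, below all unamputated larval arrays. Its part in the larval changes was not tested.

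Between successive days none of the 7 probe sets was called. Of all probe sets 8.93% were called in the larval step between 1 and 2 dpa and 0.297% in that between 2 and 3 dpa. In adults 2.48% were called between 1 and 3 dpa and 0.0516% between 3 and 5 dpa. At an unadjusted limma p under 0.05 the larval step from 1 to 2 dpa had 4 of the 7, where 34.8% of all probe sets passed: ctsla and ctsk were higher, and the second ctsl.1 probe set (−1.21 ± 0.48) and ctss2.1 (−1.2 ± 0.51) were lower. The adult step from 1 to 3 dpa had 2 of the 7 under that threshold, ctsba (−0.39 ± 0.16) and ctsd (−0.31 ± 0.14), where 17.1% of all probe sets passed. The later larval and adult steps had 0 of the 7, where 11.3% and 10.6% passed. Larval 1 dpa replicate 1 decided the larval step from 1 to 2 dpa. Without that array, the first ctsl.1 probe set fell by 1.31, the second by 1.81 and ctss2.1 by 1.83, while ctsk rose by 1.2, which made 4 of 7 called. With quantile normalization the first ctsl.1 probe set turned to 0.43 and the second to 2.82 (adjusted p = 0.000433) in the same step, so the direction of ctsl.1 between 1 and 2 dpa depended on the scaling. DMSO was stated for larvae at 2 dpa and not at 1 dpa, and its part in this step was not tested. From 2 to 3 dpa the larval changes ran from −0.40 to 0.33, and the adult steps spanned −0.51 to 0.31 between 1 and 3 dpa and −0.53 to 0.32 between 3 and 5 dpa.

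Single arrays were low or high in several cathepsins at once. Adult 1 dpa replicate d was the highest of its group in 7 of 7 probe sets and replicate b the lowest in 7. Larval 3 dpa replicate 3, the distant array over all probe sets, was the lowest of its group in 6 of 7. Larval 1 dpa replicate 1 was the lowest in 5 and the highest in 2, those of ctsla and ctsk. The mean log2 ratio of the 28 phagocyte probe sets described below was also lowest on the same larval arrays, at −0.35 on larval 3 dpa replicate 3 against −0.02 and 0.01 on its replicates, and at −0.25 on larval 1 dpa replicate 1 against 0.26 and 0.29. On the adult 1 dpa arrays that mean was 1.32 for replicate d and 1.43 for replicate b, so the cathepsins and the phagocyte list were not ordered alike there. How often each array was lowest or highest over all probe sets was not counted. A shift of the whole array therefore cannot be told apart from one of the cathepsins.

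**Figure D4:**
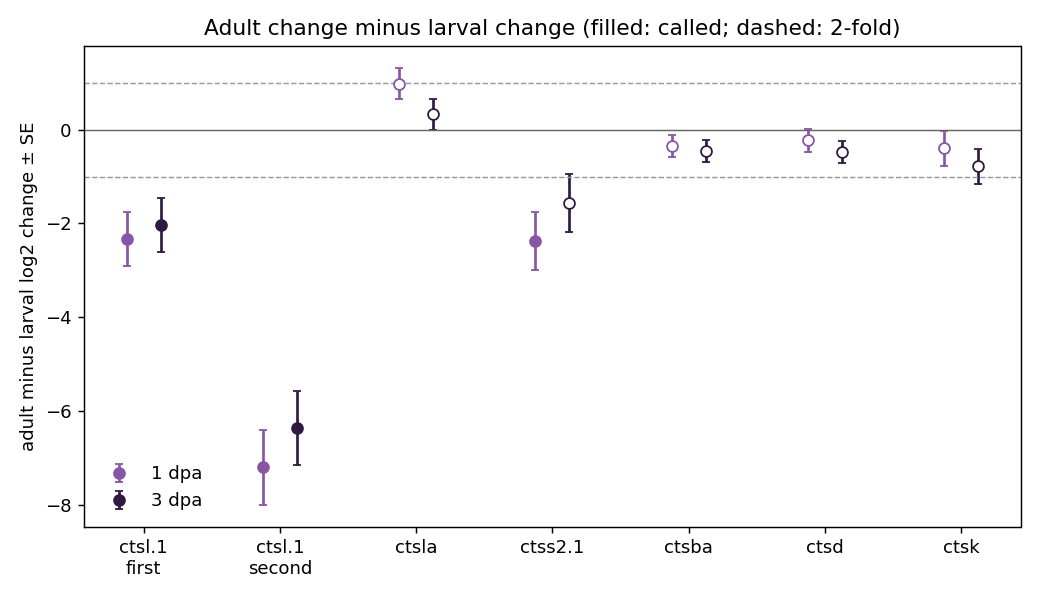
Adult log2 change minus larval log2 change at the days measured at both ages, 1 and 3 dpa, with its standard error, for the 7 cathepsin probe sets, filled where called and with dashed lines at 2-fold. The ctsl.1 probe sets lie at −2.33 and −7.19 at 1 dpa and at −2.04 and −6.35 at 3 dpa, and ctss2.1 at −2.38 at 1 dpa, while ctsba and ctsd lie between −0.48 and −0.23.

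The adult change was set against the larval change at 1 and 3 dpa in a fit of all 24 arrays. At 1 dpa the adult change minus the larval change was −2.33 ± 0.57 and −7.19 ± 0.80 for the first and second ctsl.1 probe sets (limma adjusted p = 0.00492 and 5.58e-06) and −2.38 ± 0.62 for ctss2.1 (adjusted p = 0.00706). These 3 of 7 compare with 9.01% of all probe sets that were lower by this rule. At 3 dpa the ctsl.1 differences were −2.04 ± 0.57 and −6.35 ± 0.80 (adjusted p = 0.00888 and 7.48e-06), 2 of 7 against a background of 10.6%. Related lists described below also held probe sets lower by this rule. At 1 and 3 dpa these were 2 and 3 of 8 for other cathepsins and 10 and 12 of 27 for lysosomal hydrolases. For lysosomal membrane proteins they were 5 and 10 of 23. Higher were 0 and 0, 2 and 2, and 1 and 0. The proton pump had 1 and 0 of 16 lower and 1 and 1 higher. For ctss2.1 the difference at 3 dpa was −1.56 ± 0.62, with a limma adjusted p of 0.0504. It was called with a filter on low values (adjusted p = 0.0475), with only the compared groups fitted (0.0408) and without some single arrays. Without larval 3 dpa replicate 3 it was −2.03 (adjusted p = 0.0114), that of ctsk was −1.12 (adjusted p = 0.0134), and 4 of 7 were called. With quantile normalization that of ctsk at 3 dpa was called too (−1.185, adjusted p = 0.0359). With quantile normalization the first ctsl.1 probe set missed the call at 1 dpa (−2.64, adjusted p = 0.053).

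No member had a called difference in the other direction, where 8.92% and 11.5% of all probe sets were called at 1 and 3 dpa. For ctsla the adult change exceeded the larval one by 0.98 ± 0.34 at 1 dpa (limma adjusted p = 0.0337), just under 2-fold, and with arrays centred the difference was 1.11 (adjusted p = 0.0183) and was called. For ctsba the difference was −0.35 ± 0.24 at 1 dpa and −0.46 ± 0.24 at 3 dpa, and for ctsd −0.23 ± 0.24 and −0.48 ± 0.24. For ctsk it was −0.40 ± 0.37 and −0.78 ± 0.37. A difference that misses the call does not show that the ages change alike.

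Other cathepsin genes of the array shared the larval direction in part. Of 15 further cathepsin genes listed, 7 had 8 probe sets, and 3, 4 and 4 of these rose in larvae at 1, 2 and 3 dpa, while none was called in adults at any day. In adults 4, 4 and 6 of the 8 had an unadjusted limma p under 0.05 at 1, 3 and 5 dpa, where 54.6%, 53.1% and 47.2% of all probe sets did, so these counts are near the background. Among them were ctsc, whose changes of 0.85 ± 0.22, 0.93 ± 0.22 and 0.76 ± 0.22 were under 2-fold, and ctss1, at −0.78 ± 0.13, −0.65 ± 0.13 and −0.65 ± 0.13. The gene ctss2.2, next to ctss2.1 on the chromosome, again had 2 probe sets that differed in size. The first (ending in A1_at) rose by 3.31 ± 0.33, 3.34 ± 0.33 and 3.74 ± 0.33 at larval 1, 2 and 3 dpa, and the second (ending in S1_at) rose by 1.26 ± 0.21, 1.46 ± 0.21 and 1.84 ± 0.21. The first changed by 2.05 ± 0.34, 1.88 ± 0.34 and 1.91 ± 0.34 more than the second (limma on the difference, adjusted p = 0.00804, 0.00213 and 0.00212). In adults the pair did not differ by the rule. The gene ctsc encodes cathepsin C, which activates proteases of immune cell granules, and it rose by 1.73 ± 0.28, 1.33 ± 0.28 and 1.24 ± 0.28 in larvae. A rise was called for ctsz at larval 2 dpa (1.11 ± 0.21) and for ctsa, which protects other lysosomal enzymes, at larval 3 dpa (1.08 ± 0.12). The genes ctsf, ctsll and ctss1 were not called against unamputated fin at any day. In the adult minus larval change ctss1 was lower at 1 dpa (−1.05 ± 0.27, limma adjusted p = 0.00721). There ctsf was lower at 3 dpa (−1.095 ± 0.29, limma adjusted p = 0.00672).

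Genes that process or restrain cathepsins were measured with 11 probe sets of 8 genes. Of these 2, 4 and 5 rose in larvae at 1, 2 and 3 dpa and 0, 1 and 1 fell, and 3 rose in adults at each day, with 2 lower at 1 dpa. As shares, 18.2%, 36.4% and 45.5% rose in larvae, against 2.43%, 6.23% and 5.08% of all probe sets. In adults 27.3% rose at each day, against 8.68%, 8.10% and 7.01%. The larval shares that fell were 0%, 9.09% and 9.09%, against 1.58%, 6.32% and 5.51%. At adult 1 dpa 18.2% fell, against 7.40%. The gene lgmn encodes legumain, a lysosomal protease that cuts cathepsin precursors. It rose by 2.38 ± 0.21, 1.62 ± 0.21 and 1.53 ± 0.21 in larvae at 1, 2 and 3 dpa (limma adjusted p = 0.000111, 0.000168 and 0.000276), and by 1.69 ± 0.21, 1.05 ± 0.21 and 1.19 ± 0.21 in adults at 1, 3 and 5 dpa. Progranulin, a lysosomal cofactor, was read by grna, which rose by 3.2 ± 0.36 in larvae at 1 dpa, and by grna.1, which rose by 3.54 ± 0.24 in adults at 1 dpa. The cystatin gene cst14b.1, named for a family of cysteine protease inhibitors, went in opposite directions at the 2 ages. It fell by 1.36 at larval 2 dpa and by 1.52 at larval 3 dpa, and rose by 1.80 ± 0.19, 1.57 ± 0.19 and 1.03 ± 0.19 in adults at 1, 3 and 5 dpa.

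Other lysosomal genes were called in smaller shares in larvae than the 6 genes. Those 6 were chosen with earlier results of these data known, so the gap is not a test. Among 27 probe sets of other lysosomal hydrolases, 3, 11 and 10 rose and 0, 1 and 1 fell in larvae at 1, 2 and 3 dpa. As shares, 11.1%, 40.7% and 37% rose, against 2.43%, 6.23% and 5.08% of all probe sets. Those that fell were 0%, 3.7% and 3.7%, against 1.58%, 6.32% and 5.51%. In adults 2, 4 and 4 rose and 5, 4 and 0 fell at 1, 3 and 5 dpa. The adult shares that rose were 7.41%, 14.8% and 14.8%, against 8.68%, 8.10% and 7.01% of all probe sets. Those that fell were 18.5%, 14.8% and 0%, against 7.40%, 6.19% and 4.46%. The gene gnsa, a sulfatase of heparan sulfate breakdown, rose by 1.14 ± 0.17, 1.81 ± 0.17 and 1.88 ± 0.17 in larvae. The hydrolase gene glb1l, a relative of the lysosomal galactosidase, rose by 2.47 ± 0.23, 3.14 ± 0.23 and 3.61 ± 0.23 in adults at 1, 3 and 5 dpa. The fucosidase genes fuca2 and fuca1.1 fell in adults at 1 dpa by 1.5 and by 1.46. Of 23 probe sets of lysosomal membrane proteins, 3, 8 and 7 rose and 1 fell at each larval day, with cd68, a macrophage marker, higher by 2.82 ± 0.37, 3.04 ± 0.37 and 3.00 ± 0.37 at 1, 2 and 3 dpa. As shares, 13%, 34.8% and 30.4% rose, against 2.43%, 6.23% and 5.08% of all probe sets. At each larval day 4.35% fell, against 1.58%, 6.32% and 5.51%. In adults 3, 1 and 1 rose and none fell. These were 13%, 4.35% and 4.35% of the membrane list, against 8.68%, 8.10% and 7.01% of all probe sets. Adult cd68 changed by −0.30 ± 0.34, −0.48 ± 0.34 and −0.40 ± 0.34 at 1, 3 and 5 dpa and was not called.

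The proton pump of the lysosome, which acidifies it, had 16 probe sets. In larvae 1 rose at each day and 1 fell at 3 dpa, and in adults 3 rose at 1 dpa and none was called later. The larval one was tcirg1b, a pump subunit used by osteoclasts in mammals (1.58 ± 0.30, 1.31 ± 0.30 and 1.12 ± 0.30). That was 6.25% of the pump list at each larval day, against 2.43%, 6.23% and 5.08% of all probe sets. The adult share of the pump list that rose at 1 dpa was 18.8%, against 8.68%. Genes that sort enzymes to the lysosome or control lysosome genes had 19 probe sets. Of these 0, 3 and 0 rose in larvae and 1, 2 and 2 in adults, with none lower. The transcription factor gene tfe3a, known in mammals to switch on lysosome genes, was among those that rose. Its rise was 1.56 ± 0.27 at larval 2 dpa, and 1.38 ± 0.38 and 1.28 ± 0.38 at adult 3 and 5 dpa. The adult shares of this list were 5.26%, 10.5% and 10.5%, near the 8.68%, 8.10% and 7.01% of all probe sets. Its larval shares were 0%, 15.8% and 0%, against 2.43%, 6.23% and 5.08%. In adults the median change at 1, 3 and 5 dpa was −0.22, −0.10 and 0.05 over the hydrolases, −0.13, −0.06 and −0.13 over the membrane proteins, and 0.08, −0.04 and −0.12 over the sorting genes.

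**Figure D5:**
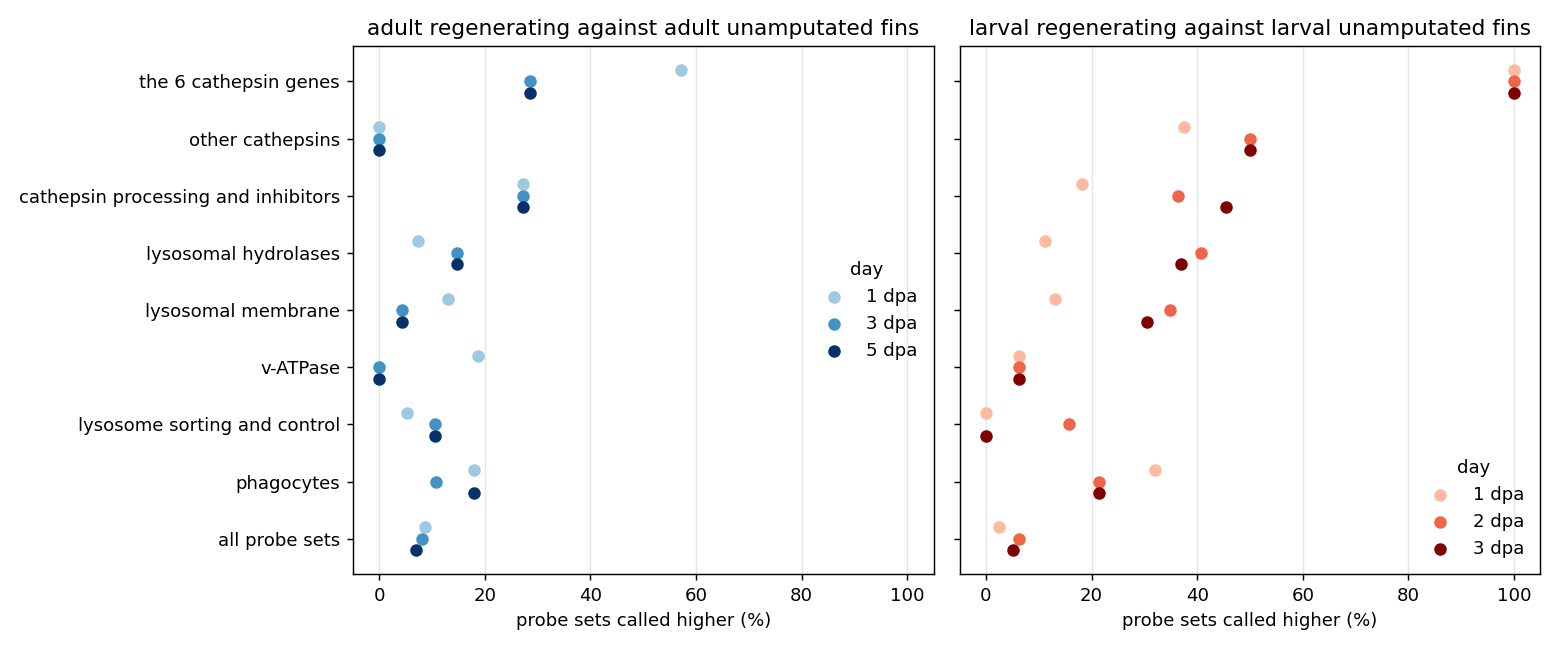
Share of probe sets called higher than in unamputated fin, in percent, for the 6 cathepsin genes, other lysosomal lists, phagocyte markers and all probe sets, with adult fins on the left and larval fins on the right and one shade per day. The 6 cathepsin genes are at 100% at every larval day and at 57.1%, 28.6% and 28.6% at adult 1, 3 and 5 dpa, and the share over all probe sets is 2.43% to 8.68%. The 6 genes were chosen with earlier results of these data known.

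Markers of phagocytes, the macrophages and neutrophils in which cathepsins are abundant, moved with the cathepsins in part. Of 28 probe sets, 9, 6 and 6 rose and 0, 1 and 1 fell in larvae at 1, 2 and 3 dpa. In adults 5, 3 and 5 rose and 2, 1 and 1 fell at 1, 3 and 5 dpa. The larval shares that rose were 32.1%, 21.4% and 21.4%, against 2.43%, 6.23% and 5.08% of all probe sets. The adult shares that rose were 17.9%, 10.7% and 17.9%, against 8.68%, 8.10% and 7.01%. The macrophage receptor gene marco rose by 2.79 ± 0.33, 1.67 ± 0.33 and 1.87 ± 0.33 in larvae, and the myeloid transcription factor gene spi1b rose by 2.41 ± 0.38 in larvae and by 1.92 ± 0.25 in adults at 1 dpa. The lysozyme gene lyz fell by 3.51 at larval 2 dpa and by 4.23 at larval 3 dpa. The list's mean log2 ratio on the arrays was −0.25 to 0.29 at larval 1 dpa, −0.20 to −0.01 at 2 dpa and −0.35 to 0.01 at 3 dpa, against −0.68 to −0.37 in unamputated larvae. In adults it ranged from 0.94 to 1.43, 0.88 to 1.18 and 0.93 to 1.22 at 1, 3 and 5 dpa, against 1.03 to 1.28 when unamputated. Larval groups thus stood above unamputated fin in this list and adult groups overlapped it, and its part in the cathepsin changes was not tested.

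Of 7 osteoclast probe sets, 2, 3 and 2 rose in larvae at 1, 2 and 3 dpa and 0, 1 and 1 in adults at 1, 3 and 5 dpa. The larval shares were 28.6%, 42.9% and 28.6%, against 2.43%, 6.23% and 5.08% of all probe sets. In adults they were 0%, 14.3% and 14.3%, against 8.68%, 8.10% and 7.01%. Among those that rose was acp5a, the tartrate-resistant phosphatase of osteoclasts and some macrophages (2.42 ± 0.43 at larval 1 dpa, and 1.60 ± 0.55 and 1.58 ± 0.55 at adult 3 and 5 dpa). The list also holds tcirg1b, already counted with the proton pump. Trunk tissues moved with the larval days. Of 33 skeletal muscle probe sets, 28 and 27 fell at larval 2 and 3 dpa, and the list's mean log2 ratio was −0.24 to 0.24 at 2 dpa and −0.23 to −0.11 at 3 dpa, against 2.70 to 4.62 in unamputated larvae. Notochord and cartilage had 11 of 19 lower on both days and erythrocytes 10 of 15. Over all probe sets 6.32% and 5.51% fell at larval 2 and 3 dpa. At larval 1 dpa the muscle list was at 3.82 to 5.41, with 0 of 33 lower. All 7 cathepsin probe sets were called on that day, though the calls of ctsla and ctsk were lost with quantile normalization. Adult muscle markers lay between −0.93 and −0.52 on all arrays. The part of the trunk tissue in the larval results was not tested.

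Markers of the fin's own tissues also moved on days when cathepsins were called. Of 26 probe sets of fin mesenchyme and actinotrichia, the fibres that stiffen the fin fold, 6, 14 and 13 rose and 3, 0 and 0 fell in adults at 1, 3 and 5 dpa. As shares, 23.1%, 53.8% and 50% rose, against 8.68%, 8.10% and 7.01% of all probe sets. Those that fell were 11.5%, 0% and 0%, against 7.40%, 6.19% and 4.46%. The list's mean log2 ratio was −1.68 to −1.15 at adult 1 dpa, −0.38 to −0.29 at 3 dpa and −0.53 to −0.33 at 5 dpa, against −1.95 to −1.67 in unamputated adults. In larvae 1, 7 and 4 rose and 2, 2 and 1 fell at 1, 2 and 3 dpa, and 9 rose and 1 fell between 1 and 2 dpa. As shares, 3.85%, 26.9% and 15.4% rose at the 3 larval days, against 2.43%, 6.23% and 5.08% of all probe sets. Those that fell were 7.69%, 7.69% and 3.85%, against 1.58%, 6.32% and 5.51%. Between 1 and 2 dpa 8.93% of all probe sets were called in either direction. The larval mean of the mesenchyme list was −0.39 to −0.07 at 1 dpa, 0.27 to 0.35 at 2 dpa and 0.27 to 0.32 at 3 dpa, against −0.12 to −0.01 when unamputated. The list thus stood highest on the days on which ctsk was called in adults. From adult 3 to 5 dpa the median change of the list was −0.20, and ctsk differed by 0.32 ± 0.21 and was not called. At larval 2 dpa the list stood above the 1 dpa arrays, as ctsla and ctsk did. At larval 1 dpa ctsla and ctsk were both called, while the list overlapped unamputated fin. Both calls were lost with quantile normalization and when some single arrays were left out. The largest adult change of ctsla was at 1 dpa, where the list stood below its values at 3 and 5 dpa. Whether this tissue had a part in the cathepsin changes was not tested.

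Of 32 epidermis probe sets, 3, 1 and 0 rose and 5, 12 and 9 fell in larvae at 1, 2 and 3 dpa. As shares, 9.38%, 3.12% and 0% rose, against 2.43%, 6.23% and 5.08% of all probe sets. Those that fell were 15.6%, 37.5% and 28.1%, against 1.58%, 6.32% and 5.51%. In adults 3, 4 and 5 rose and 4, 1 and 0 fell at 1, 3 and 5 dpa. The adult shares that rose were 9.38%, 12.5% and 15.6%, against 8.68%, 8.10% and 7.01% of all probe sets. The epidermis list's mean log2 ratio was −0.45 to −0.14, −0.68 to −0.55 and −0.87 to −0.58 at larval 1, 2 and 3 dpa, against −0.03 to 0.02 in unamputated larvae. In adults it was 1.14 to 1.30, 1.04 to 1.4 and 1.28 to 1.39 at 1, 3 and 5 dpa, against 0.95 to 1.32 when unamputated. Larval regenerating fins thus stood below unamputated fin in this list and adult groups overlapped it. The part of the epidermis in the cathepsin changes was not tested.

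Genes most like each cathepsin were sought by Pearson r of log2 ratios over the 24 arrays, centred within each age, among probe sets of other genes. These are descriptions over arrays that share groups. For the first ctsl.1 probe set they were mafbb, a transcription factor of the macrophage lineage (r = 0.938), ctss2.1 (0.915) and rnaseka (0.905). For the second they were ctss2.2 (0.945), rnaseka (0.942) and cd68 (0.923). For ctss2.1 they were mafbb (0.956), lgmn (0.918) and ctsl.1 (0.915). The first ctsl.1 probe set and ctss2.1 thus named each other and mafbb. The second ctsl.1 probe set named neither among its 3, though its r with ctss2.1 was 0.89. The gene mafbb rose by 3.14 ± 0.38, 2.22 ± 0.38 and 2.29 ± 0.38 in larvae at 1, 2 and 3 dpa and by 1.08 ± 0.26 in adults at 1 dpa.

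For ctsba the nearest were acad11 (0.93), lgmn (0.927) and slc7a7 (0.911), and for ctsd slc7a7 (0.935), the retinoic acid synthesis gene aldh1a2 (0.927) and ctsla (0.925). The amino acid transporter gene slc7a7 rose by 2.69 ± 0.45, 2.84 ± 0.45 and 2.62 ± 0.45 in larvae and by 2.54 ± 0.33, 1.58 ± 0.33 and 1.48 ± 0.33 in adults. For ctsla they were the keratin gene krt18b (0.943), jpt1b (0.942) and aldh1a2 (0.934). For ctsk they were cpm (0.944), gnpda1 (0.936) and dkk3b (0.93), a gene of the dickkopf family of secreted proteins. Of these dkk3b rose by 1.77 ± 0.37, 3.35 ± 0.37 and 3.33 ± 0.37 in adults at 1, 3 and 5 dpa, and the carboxypeptidase gene cpm was called in adults at 5 dpa (1.28 ± 0.35) and not at 1 or 3 dpa (0.53 ± 0.35 and 0.99 ± 0.35). Among the members themselves r ran from 0.561, between the second ctsl.1 probe set and ctsla, to 0.928, between the ctsl.1 probe sets.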

How the data were processed

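Per the submitters' processing notes the arrays were summarised with GCRMA (version not given in the sources used here). The deposited values are linear ratios, 1 per probe set and array, to a reference that is not stated, and 9600 probe sets hold exactly 1 array at a value of 1. Arrays give no read depth, so their number limits the precision. Control probe sets (115 of 15617) were left out of the tests, and the deposited ratios were turned to log2. GEO's platform annotation gave 1 symbol to 10795 probe sets, several to 135 and none to 4572, with symbols updated through the RefSeq table (assembly GRCz12tu).

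Groups followed the sample titles. limma 3.58.1 in R 4.3.3 was fitted over the 12 arrays of an age for comparisons within it and over 24 arrays for the adult minus larval change, with p-values adjusted over 15502 probe sets. The ctsl.1 probe sets were compared by limma on their log2 difference, beside all 2608 pairs of 1539 genes. The fits were tested on simulated data. The labels do not say that replicates came from separate breedings, so p-values measure the spread between these pools. The cathepsin genes and the marker lists were chosen with earlier results of these data known. From each list at most 3 probe sets per direction and comparison were eligible to be named, those with the largest called changes, and the 3 genes most alike were named for each cathepsin probe set. All probe sets of the other cathepsins were eligible too. Letters of the adult 3 and 5 dpa replicates paired the arrays (3 of 3 correlations of deviations from group means over 0.1, from 0.156 to 0.433), a hint from the data and not from the labels. Centring, quantile normalization, a floor, a filter on low values, other fits, a replicate block and leaving out each array were tried as alternatives.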

Additional observations from a re-analysis of the deposited data

Results flagged for a closer look

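For 2 of the 6 cathepsin genes the adult and the larval change differed by the test of the difference itself. Of the 7 probe sets 42.9% and 28.6% were lower by this rule at 1 and 3 dpa, against 9.01% and 10.6% of all probe sets. Among lysosomal hydrolases 37% and 44.4% were lower, and among lysosomal membrane proteins 21.7% and 43.5%. The first ctsl.1 probe set had an adult minus larval log2 change of −2.333 at 1 dpa and −2.038 at 3 dpa. With quantile normalization its call at 1 dpa was lost (limma adjusted p = 0.053). The second ctsl.1 probe set had differences of −7.19 at 1 dpa and −6.353 at 3 dpa. For ctss2.1 the difference was −2.38 at 1 dpa. Age, labelling kit, RNA input and vehicle cannot be told apart in these differences.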

How the results depend on the processing

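Counts are of the 7 cathepsin probe sets called. The larval counts of 7 at 2 and 3 dpa held under every alternative run, and at 1 dpa the count was 5 to 7 when 1 array was left out. From larval 1 to 2 dpa the count of 0 became 2 with quantile normalization, 2 with no minimum fold change and 0 to 4 with an array left out. The adult count at 1 dpa was 1 with quantile normalization (main value 4). At 3 dpa it was 1 with quantile normalization, 4 with no minimum fold change and 1 to 2 with an array left out (main value 2), and at 5 dpa it was 6 with no minimum fold change. The adult minus larval count at 3 dpa ranged from 2 to 4 with an array left out. Quantile normalization turned the sign of both ctsl.1 probe sets from larval 1 to 2 dpa (0.434 and 2.821) and of their difference (2.387). In that step the second ctsl.1 probe set and the difference were called. The same scaling turned the sign of ctsla (−0.029) and ctsba (0.058) from adult 3 to 5 dpa, and of ctsla in the adult minus larval change at 3 dpa (−0.888). With an array left out, signs turned in these ranges, none of them called: the second ctsl.1 probe set at adult 5 dpa (−0.669 to 0.205), adult 1 dpa (−0.129 to 0.928) and adult 3 against 1 dpa (−0.546 to 0.512), the first there (−0.399 to 0.152), ctsla (−0.123 to 0.088) and ctsba (−0.102 to 0.094) at adult 5 against 3 dpa, and at larval 3 against 2 dpa ctsba (−0.041 to 0.143), ctss2.1 (−0.388 to 0.34), ctsd (−0.376 to 0.016) and ctsk (−0.545 to 0.052). The same held for ctsla in the adult minus larval change at 3 dpa (−0.072 to 0.59) and for the ctsl.1 difference at adult 1 dpa (−0.535 to 0.033), adult 3 dpa (−0.542 to 0.076), adult 3 against 1 dpa (−0.339 to 0.36) and larval 3 against 2 dpa (−0.128 to 0.014). The causes were not tested. Larval replicate numbers did not pair the arrays (r from −0.035 to 0.197, 6 of 18 over 0.1). With a replicate block the larval counts were 7, 7 and 7, with 0 in both larval steps and 0 from adult 3 to 5 dpa, and no count changed. Over all probe sets, counts ran from 491 to 2097, 1514 to 4899 and 1258 to 4371 at larval 1, 2 and 3 dpa (main values 622, 1945 and 1641), from 1587 to 7160, 1518 to 6783 and 1289 to 5321 at adult 1, 3 and 5 dpa (2492, 2215 and 1778), from 1056 to 3629, 2 to 122, 139 to 696 and 1 to 64 in the larval and adult steps (1385, 46, 385 and 8), and from 1962 to 4816 and 2703 to 6126 for the adult minus larval change (2779 and 3425). Centring moved the share of higher calls to 67.3%, 70.2% and 75.1% at adult 1, 3 and 5 dpa, against 54%, 56.7% and 61.1% as deposited, and to 61.6% and 62.5%, against 49.8% and 52.1%, for the adult minus larval change. Quantile normalization moved it to 51.1%, against 67.4%, from larval 2 to 3 dpa and to 42.9%, against 75%, from adult 3 to 5 dpa.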
